A study of Homo sapiens with 15 samples.

Results

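The genes described here are 41 classical targets of the hypoxia-inducible factors (HIFs) and genes of glycolysis, followed in U87MG cells, an established human glioblastoma line. They were taken by symbol from the 25737 entries of the deposited table, and each of the 41 symbols occurred in 1 entry. They comprise 20 HIF targets, the 2 oxygen-regulated HIF alpha subunits, 3 glucose and lactate carriers and 16 glycolysis enzymes. NDRG1 was already known to be higher in the control group when the list was made, so its difference from the control is described without a test.

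Cells had been treated for 24 h with control lentivirus for GFP, or with lentivirus for ID1, ID2, ID3 or ID4, which are inhibitors of basic helix-loop-helix transcription factors. Each of the 5 groups had 3 libraries, and all were U87MG cells grown in the same serum-containing medium. The labels give no oxygen level, the promoter of the vectors is not given in the sources used here, and the GFP libraries are shared by every comparison with GFP. They also do not say whether the 3 libraries of a group came from separate cultures, so p-values measure the spread between these libraries, which may be technical.

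HIFs are dimers of an oxygen-regulated alpha subunit (HIF1A or EPAS1) and a stable partner such as ARNT. When oxygen is sufficient, the prolyl hydroxylases EGLN1 and EGLN3 mark the alpha subunits for degradation, so much of HIF control acts on protein rather than on mRNA. When oxygen falls, the stabilised dimer binds short DNA elements in its targets, which serve angiogenesis, pH balance, mitophagy, collagen modification and a shift to glycolysis. Glioblastoma is known for hypoxic areas in which VEGFA and CA9 are high.

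The libraries held 11089044 to 15148979 counts, and levels are given in CPM, read counts scaled to the total of the library. A count of 3, taken as the floor of detection, corresponded to 0.198 to 0.271 CPM, which covers counting error only. The label checks came out unevenly. ID4 stood at 0 to 0.166 CPM in GFP and at 210 to 235 CPM in the ID4 libraries. ID3 rose from 214 to 230 CPM in GFP to 301 to 323 CPM in the ID3 libraries. It was also above GFP in the ID2 libraries, at 268, 319 and 275 CPM. In contrast, ID1 was at 337 to 350 CPM in GFP and at 247 to 254 CPM in the libraries labelled ID1. It was at 279 to 340, 322 to 340 and 260 to 299 CPM in those labelled ID2, ID3 and ID4. The ID2 gene was at 83.1 to 88.7 CPM in GFP and at 43.7 to 46.2 CPM in the libraries labelled ID2. It was also below GFP in the other ID groups, at 31.6 to 36.8 CPM in ID1, 45.6 to 48.7 CPM in ID3 and 34.8 to 37.7 CPM in ID4. The group names are therefore labels only for ID1 and ID2, and the rise of ID3 was shared by the libraries labelled ID2. Of the 8 glioma markers checked, VIM, CD44 and FN1 were high and NES was at 16.6 to 29.8 CPM. SOX2, S100B, GFAP and OLIG2 were below 1 CPM in all 15 libraries. FN1 was at 5816 to 6277 CPM in GFP and at 7881 to 15006 CPM in the ID libraries. Of 6 markers of other cell types, CD68 was the one above 2 CPM in any library. The summed level of these 6 was 50.8 to 57.1 CPM in GFP and 50.8 to 53.8, 70.5 to 75.2, 56.8 to 66.3 and 56.8 to 67.9 CPM in ID1, ID2, ID3 and ID4, and its part in the results was not tested. ID2 replicate 3 stood apart from its group. A tested gene lay a median of 0.16 on the log2 scale from the mean of the other ID2 libraries in that library, against 0.09 to 0.13 in the other 14. Several results that rest on it are therefore also given without it.

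Of the 41 genes, 40 were abundant enough to be tested. EGLN3 was not, with 1 count in 1 GFP library and 0 counts elsewhere. In the mean of the 4 ID groups against GFP, 32 of the 40 had an adjusted p under 0.05, 7 higher and 25 lower. Over all 12870 tested genes, 32% passed, 16.8% higher and 15.2% lower. Without NDRG1, 31 of 39 passed, 7 higher and 24 lower. The median log2 fold change of the 40 genes was -0.21, against 0.00 over all tested genes. Together the 41 genes, NDRG1 included, took 1.61% to 1.72% of the counts in GFP libraries. They took 1.31% to 1.34% in ID1, 1.43% to 1.56% in ID2, 1.40% to 1.47% in ID3 and 1.32% to 1.35% in ID4. NDRG1 alone was at 2021 to 2122 CPM in GFP and at 632 to 859 CPM in the ID libraries. The lower shares thus rest in part on this known difference, and they are not given without NDRG1. In bulk libraries, fewer cells expressing a gene and less of its RNA per cell cannot be told apart.

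**Figure D1:**
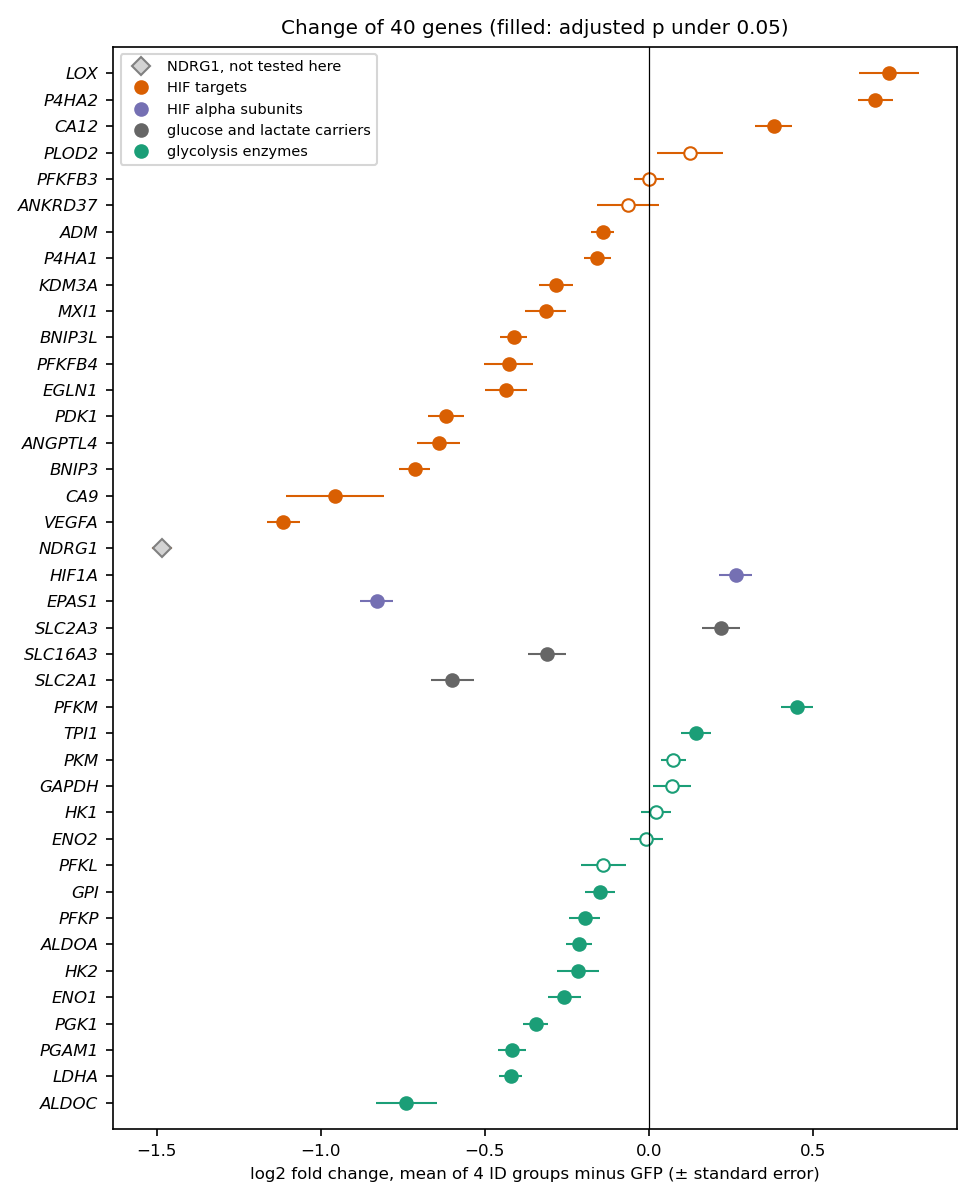
Log2 fold change of the 40 genes in the mean of the 4 ID groups against GFP, ordered within each list, with bars for the standard error. Filled points had an adjusted p under 0.05 and open points did not, NDRG1 is drawn as a diamond without a test, and the 7 genes that rose (LOX, P4HA2, CA12, HIF1A, SLC2A3, PFKM and TPI1) are spread over all 4 lists.

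The HIF element has the core ACGTG or GCGTG. Promoter sequences from RefSeq, from 250 bases before to 50 bases after the gene start, were found for 37 of the 41 genes, and no entry matched NDRG1, VEGFA, BNIP3L and SLC2A3. On either strand, at least 1 core was present in 27 of these 37 promoters (73.0%), in 13 of 17 HIF targets (76.5%) and in 11 of 16 glycolysis enzymes (68.8%). The share among all 35116 promoters was 48.4%. That share counts every entry, also of untested genes, whereas the listed genes have 1 promoter each, so the sets are unlike. A match is a description of the letters and not of a bound site. Promoters are shown for CA9 and ALDOC, the HIF target other than NDRG1 and VEGFA and the enzyme with the lowest log2 fold changes, for PGK1, an enzyme with 4 cores that fell, and for LOX, which also had 4 cores and rose. They are written 5′ to 3′ along the gene's strand, with cores on either strand in capitals, so that CACGT is ACGTG and CACGC is GCGTG read on the other strand and CACGTG holds a core on each strand. The letters matched the GRCh37 genome exactly at chr9:35673675-35673974 (plus strand, CA9), chr17:26903864-26904163 (minus strand, ALDOC), chrX:77359495-77359794 (plus strand, PGK1) and chr5:121413905-121414204 (minus strand, LOX).
CA9: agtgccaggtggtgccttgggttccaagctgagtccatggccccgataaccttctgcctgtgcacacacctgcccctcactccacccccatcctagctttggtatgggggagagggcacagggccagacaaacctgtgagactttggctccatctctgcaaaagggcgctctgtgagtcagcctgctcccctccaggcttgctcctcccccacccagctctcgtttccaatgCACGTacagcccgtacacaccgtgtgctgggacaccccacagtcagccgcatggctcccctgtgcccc
ALDOC: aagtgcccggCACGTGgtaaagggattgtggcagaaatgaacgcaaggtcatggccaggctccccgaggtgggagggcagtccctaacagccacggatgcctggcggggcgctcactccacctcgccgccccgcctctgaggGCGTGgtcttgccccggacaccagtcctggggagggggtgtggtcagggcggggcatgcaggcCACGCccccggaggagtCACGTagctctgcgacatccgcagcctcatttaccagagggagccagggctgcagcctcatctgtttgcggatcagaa
PGK1: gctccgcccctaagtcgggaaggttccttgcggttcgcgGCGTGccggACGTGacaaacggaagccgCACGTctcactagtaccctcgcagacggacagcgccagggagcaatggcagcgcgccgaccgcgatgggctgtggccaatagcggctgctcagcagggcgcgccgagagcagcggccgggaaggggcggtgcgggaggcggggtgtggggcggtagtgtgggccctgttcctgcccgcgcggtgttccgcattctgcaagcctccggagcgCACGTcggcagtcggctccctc
LOX: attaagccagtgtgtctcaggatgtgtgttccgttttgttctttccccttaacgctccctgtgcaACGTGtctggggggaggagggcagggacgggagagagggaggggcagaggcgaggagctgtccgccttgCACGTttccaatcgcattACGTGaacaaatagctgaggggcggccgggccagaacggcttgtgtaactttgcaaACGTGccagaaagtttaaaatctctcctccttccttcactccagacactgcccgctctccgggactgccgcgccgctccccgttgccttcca
CA9 held 1 core next to its start, ALDOC held 5 cores in 4 stretches, and PGK1 and LOX held 4 each. Among the promoters not shown, those of LDHA and BNIP3, which fell, held 6 cores each. Those of PDK1, MXI1, SLC16A3, PFKP and PGAM1, which also fell, held none. Of the genes that rose, P4HA2, PFKM and TPI1 held none, HIF1A held 1 and CA12 held 2.

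Among the HIF targets, 16 of 19 tested genes passed in the mean of the 4 ID groups against GFP, 3 higher and 13 lower, NDRG1 included. Their median log2 fold change was -0.31. The share over all tested genes was 32%, with 16.8% higher and 15.2% lower. Without NDRG1, 15 of 18 HIF targets passed, 3 higher and 12 lower, with a median of -0.30. Those that rose were LOX, P4HA2 and CA12.

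NDRG1, a stress-responsive gene on chromosome 8, stood at 2021, 2054 and 2122 CPM in GFP replicates 1 to 3. Its levels were 827, 848 and 840 CPM in ID1, 673, 656 and 660 CPM in ID2, 808, 838 and 859 CPM in ID3 and 663, 632 and 657 CPM in ID4. The GFP level was 2.80-fold the mean ID level, and no ID library came near the GFP libraries. The ID groups fell into a higher pair (ID1 and ID3) and a lower pair (ID2 and ID4). NDRG1 differed among the 4 ID groups with an adjusted p of 1.10e-06, and its log2 difference was 0.31 (standard error 0.04) between ID1 and ID2 and 0.34 (standard error 0.04) between ID3 and ID4. Within the pairs, the log2 difference was 0.01 between ID1 and ID3 (adjusted p = 0.919) and 0.05 between ID2 and ID4 (adjusted p = 0.527), both with a standard error of 0.04.

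VEGFA, the main angiogenic growth factor (chromosome 6, 43737921 to 43754224 of GRCh37), was at 397, 391 and 348 CPM in GFP. The ID1 libraries had 167, 164 and 166 CPM, ID2 had 163, 182 and 143 CPM, ID3 had 187, 164 and 182 CPM and ID4 had 196, 208 and 194 CPM. The highest ID library was thus far below the lowest GFP library. VEGFA fell by 1.11 on the log2 scale (standard error 0.05, adjusted p = 1.19e-13), and its log2 fold change was -1.21, -1.20, -1.11 and -0.93 in ID1 to ID4. VEGFA was higher in ID4 than in ID1 and ID2, with a log2 difference of -0.28 for each of them against ID4 (adjusted p = 0.0170 and 0.00644). ANGPTL4, a secreted regulator of lipid uptake and vessels (chromosome 19, 8428173 to 8439254), had the smallest p of the 40 genes in the test among the ID groups. It stood at 57.8, 66.1 and 53.9 CPM in GFP, 32.5, 32.7 and 28.1 CPM in ID1 and 22.8, 25.7 and 26.5 CPM in ID2. In ID3 it was at 52.1, 52.4 and 48.2 CPM and in ID4 at 56.7, 54.6 and 48.6 CPM. The ID1 and ID2 libraries lay below all others, whereas the ID4 libraries overlapped GFP. The log2 fold change against GFP was -0.94 in ID1, -1.23 in ID2, -0.24 in ID3 and -0.16 in ID4, the last with an adjusted p of 0.219. Without GFP replicate 2 the value for ID3 was -0.15, and its call was also lost without GFP replicate 1 (-0.27), without each ID3 library (-0.27 to -0.20), with limma (-0.23) and with the upper 25% of genes tested (-0.22). Among the 4 ID groups ANGPTL4 differed with an adjusted p of 8.38e-09, and ID1 against ID3 differed by -0.71 and ID2 against ID4 by -1.07 on the log2 scale (standard error 0.09 each). ADM, a vasodilating peptide, ranged from 607 to 622 CPM in GFP and from 514 to 648 CPM in the ID libraries, and passed as lower in ID1, ID2 and ID4 and not in ID3, where its log2 fold change was 0.03. The difference of ID3 from ID4 was 0.28 on the log2 scale (adjusted p = 0.000283).

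**Figure D2:**
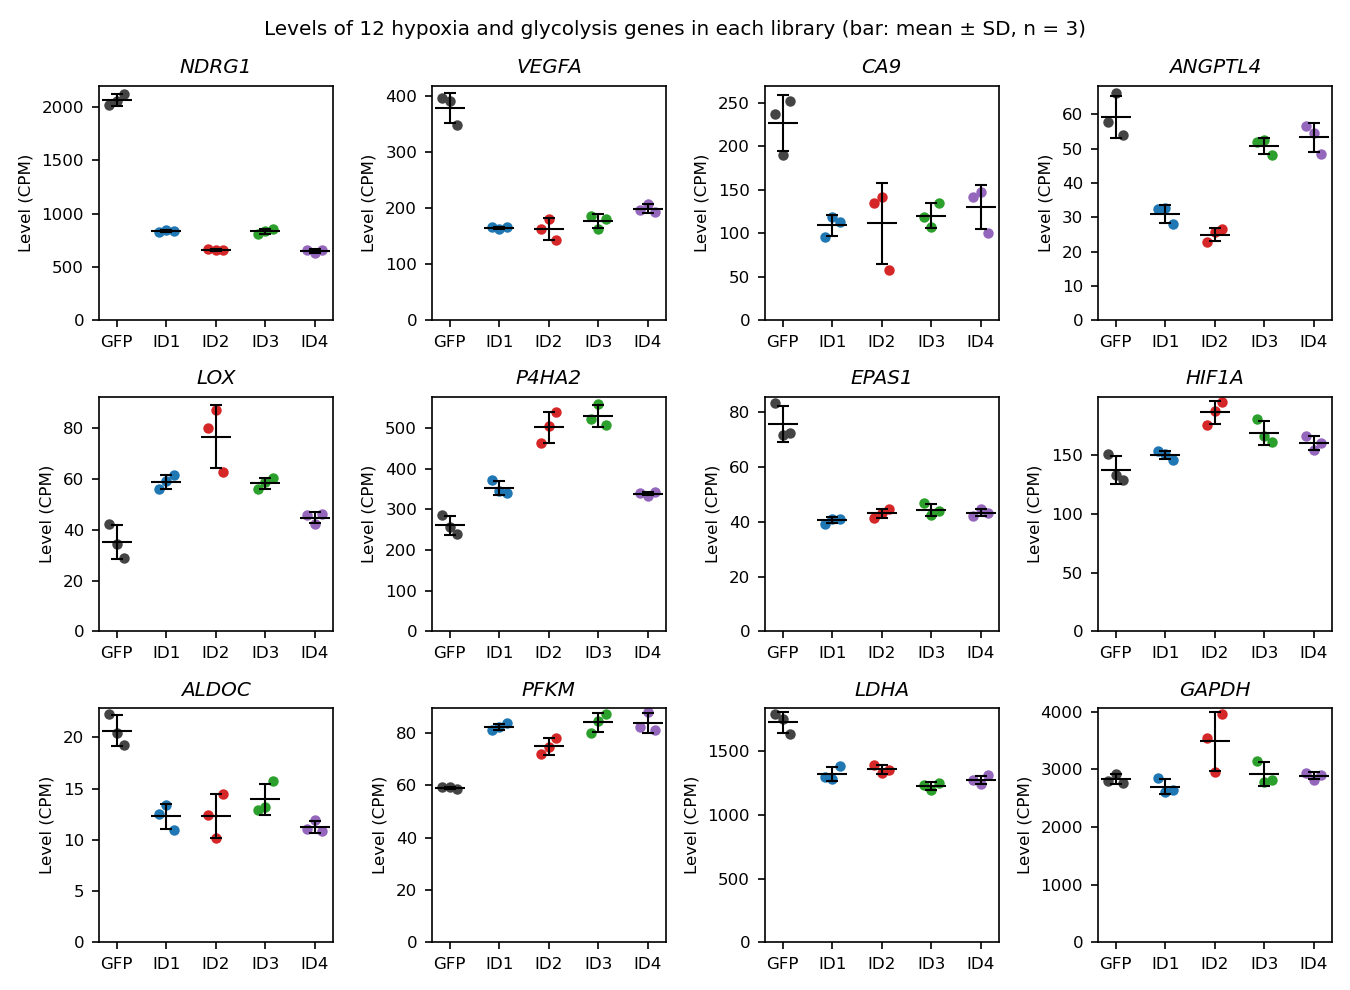
Levels in CPM of 12 genes in each of the 15 libraries by group, with a horizontal bar for the mean and an error bar for the SD (n = 3). NDRG1, VEGFA, CA9 and EPAS1 were above all ID libraries in GFP, LOX, P4HA2 and PFKM were below them, and ANGPTL4 was lowest in ID1 and ID2.

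The 2 carbonic anhydrases, membrane enzymes that buffer acid outside the cell, moved in opposite directions. CA9 (chromosome 9, 35673925 to 35681156), whose promoter is shown above, was at 238, 190 and 252 CPM in GFP and at 95.6, 118 and 113 CPM in ID1. The other groups had 135, 142 and 58.0 CPM (ID2), 118, 108 and 135 CPM (ID3) and 142, 148 and 101 CPM (ID4). Every ID library was below every GFP library, and the lowest value was that of ID2 replicate 3. CA9 fell by 0.96 on the log2 scale (standard error 0.15, adjusted p = 3.25e-05), and without ID2 replicate 3 by 0.88. In ID2 alone, its log2 fold change was -1.01 with this library and -0.71 without it. CA12 (chromosome 15, 63613577 to 63674045) was at 39.7, 36.7 and 34.3 CPM in GFP, 46.3, 44.5 and 51.2 CPM in ID1 and 48.2, 50.2 and 50.2 CPM in ID2. It reached 54.9, 51.9 and 54.0 CPM in ID3 and 44.3, 40.6 and 44.5 CPM in ID4, so the lowest ID library was just above the highest GFP library. CA12 rose by 0.38 (log2 fold change, standard error 0.06, adjusted p = 2.02e-05). The other 417 tested genes of chromosome 15 had a median log2 fold change of 0.33 in the same comparison. Relative to that median, CA12 was higher by 0.06, its value in ID1 became -0.00 and that in ID4 -0.15. The call in ID4 (log2 fold change 0.22) was also lost without GFP replicate 2 (0.22) or 3 (0.17), without ID4 replicate 1 (0.20) or 3 (0.20), and with all genes of at least 1 count tested (0.23).

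BNIP3, BNIP3L, PDK1 and MXI1 fell in the mean. BNIP3, a mitophagy receptor, ranged from 279 to 329 CPM in GFP and from 165 to 209 CPM in the ID libraries, and fell by 0.71 on the log2 scale (adjusted p = 9.28e-11). Its relative BNIP3L was at 177 to 197 CPM in GFP and 129 to 156 CPM in the ID libraries (log2 fold change -0.41). The annotation names 44 pseudogenes of BNIP3, and how reads shared between copies were counted is not given in the sources used here. PDK1, which inhibits pyruvate dehydrogenase and so keeps pyruvate out of the citric acid cycle, ranged from 72.4 to 92.7 CPM in GFP and from 48.7 to 57.4 CPM in the ID libraries. PDK1 fell by 0.62 in the mean, and its log2 fold changes in single groups lay between -0.69 and -0.54. MXI1, an antagonist of MYC, fell by 0.31 and passed in ID1, ID2 and ID4, whereas its log2 fold change in ID3 was -0.15 (adjusted p = 0.156).

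EGLN1 and KDM3A also fell. EGLN1, the main HIF prolyl hydroxylase and itself a HIF target, was at 35.6 to 36.5 CPM in GFP and 23.6 to 30.3 CPM in the ID libraries. It fell by 0.43 on the log2 scale (standard error 0.06, adjusted p = 1.50e-05) and passed in each of the 4 groups. KDM3A, a histone demethylase, fell by 0.28, also with a call in each group. ANKRD37, an ankyrin repeat protein, was at 14.9 to 18.3 CPM in GFP and 12.8 to 19.1 CPM in the ID libraries and was not called (adjusted p = 0.659).

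Of the 4 collagen-modifying targets, LOX and P4HA2 rose, P4HA1 fell and PLOD2 was not called. LOX, which crosslinks collagen (chromosome 5, 121398890 to 121414108), was at 42.0, 34.2 and 28.7 CPM in GFP, 55.9, 59.0 and 61.4 CPM in ID1 and 80.1, 87 and 62.7 CPM in ID2. ID3 had 55.9, 58.6 and 60.3 CPM and ID4 had 45.9, 42.2 and 46.1 CPM. The ID2 libraries were the highest, and the ID4 libraries lay just above GFP replicate 1. LOX rose by 0.73 (log2 fold change, standard error 0.09, adjusted p = 1.48e-06), with 0.73, 1.14, 0.71 and 0.35 in ID1 to ID4. The call in ID4 was lost without GFP replicate 2 (0.33) or 3 (0.23) and without ID4 replicate 1 or 3 (0.33 each). P4HA2, a catalytic subunit of collagen prolyl 4-hydroxylase (chromosome 5, 131525840 to 131631008), was at 287, 256 and 240 CPM in GFP. It reached 372, 347 and 340 CPM in ID1, 463, 504 and 540 CPM in ID2, 523, 561 and 508 CPM in ID3 and 340, 334 and 343 CPM in ID4. Every ID library was above every GFP library, and ID2 and ID3 stood above ID1 and ID4. The log2 fold change was 0.69 in the mean (standard error 0.05, adjusted p = 1.30e-09), and ID3 exceeded ID4 by 0.63 and ID1 by 0.58 (standard error 0.06 each). P4HA1, the alternative catalytic subunit (chromosome 10, 74766975 to 74856732), was at 210, 203 and 192 CPM in GFP and at 162, 156 and 161 CPM in ID1. It was at 191, 205 and 185 CPM in ID2, 209, 212 and 197 CPM in ID3 and 169, 167 and 176 CPM in ID4. Here ID2 and ID3 overlapped GFP, and ID1 and ID4 lay below it. P4HA1 fell by 0.16 in the mean (adjusted p = 0.00475), by 0.35 in ID1 (adjusted p = 3.23e-05) and by 0.25 in ID4 (adjusted p = 0.00157), and its log2 fold change was -0.04 in ID2 and 0.01 in ID3. In both prolyl hydroxylase subunits, ID2 and ID3 were higher than ID1 and ID4 in each of the 4 tested pairs of groups. PLOD2, a collagen lysyl hydroxylase, was at 152 to 177 CPM in GFP and 146 to 228 CPM in the ID libraries and was not called (log2 fold change 0.12, adjusted p = 0.381). The genes SRFBP1 and P4HA2-AS1 lie on the other strand at the 3′ ends of LOX and P4HA2, and reads of such pairs cannot be told apart where counting does not use strand, which is not given in the sources used here.

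PFKFB4 and PFKFB3 regulate fructose-2,6-bisphosphate, the activator of phosphofructokinase. PFKFB4 fell by 0.43 (standard error 0.07), from 27.4 to 35.1 CPM in GFP to 19.4 to 28 CPM in the ID libraries. PFKFB3 was at 108 to 115 CPM in GFP and showed a log2 fold change of 0.00 in the mean. In ID3 it was higher, at 126 to 136 CPM, with a log2 fold change of 0.22 (adjusted p = 0.00489), and ID3 exceeded ID2 by 0.36.

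The mRNAs of the 2 HIF alpha subunits changed in opposite directions. HIF1A (chromosome 14, 62162231 to 62214977) was at 151, 133 and 128 CPM in GFP, 153, 151 and 146 CPM in ID1 and 176, 188 and 195 CPM in ID2. It was at 180, 166 and 161 CPM in ID3 and at 166, 154 and 160 CPM in ID4. GFP replicate 1 lay within the ID1 range, and the ID2 libraries were above all of GFP and ID1. HIF1A rose by 0.27 in the mean (log2 fold change, standard error 0.05, adjusted p = 0.000262), with 0.11 in ID1 (adjusted p = 0.225), 0.45 in ID2, 0.28 in ID3 and 0.22 in ID4. The call in ID4 was lost without GFP replicate 2 (0.20) or 3 (0.17) and without ID4 replicate 1 (0.19). An antisense gene, HIF1A-AS3, covers its 3′ end. EPAS1, which encodes HIF-2 alpha (chromosome 2, 46520806 to 46613836), was at 83.2, 71.5 and 72.2 CPM in GFP. It was at 39.2, 41 and 41.1 CPM in ID1, 41.2, 43.3 and 44.6 CPM in ID2, 46.8, 42.6 and 43.8 CPM in ID3 and 42.1, 44.5 and 43.1 CPM in ID4. All 12 ID libraries sat in a narrow range well below GFP. EPAS1 fell by 0.83 on the log2 scale (standard error 0.05, adjusted p = 1.67e-11), and it was not called among the ID groups.

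Of the carriers, SLC2A1 and SLC16A3 fell and SLC2A3 rose. SLC2A1, the basal glucose carrier GLUT1, was at 50.0 to 62.7 CPM in GFP and 33.9 to 41.3 CPM in the ID libraries, and fell by 0.60 (standard error 0.07, adjusted p = 2.73e-07). SLC2A3, the high-affinity glucose carrier GLUT3, was at 55.9, 57.1 and 62.6 CPM in GFP and 60.5 to 77.9 CPM in the ID libraries, and rose by 0.22 (log2 fold change, adjusted p = 0.00464). That call was lost without GFP replicate 1 (0.18). SLC2A3 has the near-identical copy SLC2A14, between which reads can be split. SLC16A3, the lactate exporter MCT4, fell by 0.31 in the mean. It passed in ID1 (-0.49) and ID4 (-0.40), and its log2 fold change was -0.18 in ID2 and -0.16 in ID3. The gene CSNK1D lies on the other strand at its 3′ end.

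Of the 16 glycolysis enzymes, 11 passed in the mean of the 4 ID groups against GFP, 2 higher and 9 lower. The share over all tested genes was 32%, with 16.8% higher and 15.2% lower. The median log2 fold change of the enzymes was -0.17. The log2 fold changes of the enzymes ranged from -0.74 to 0.45, and those of the HIF targets other than NDRG1 from -1.11 to 0.73. No test of the 2 lists against each other was made.

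In the first steps of the pathway, in which glucose is phosphorylated and split, HK1 and HK2 are hexokinases. HK1 was at 528 to 546 CPM in GFP, its log2 fold change being 0.02, and HK2, the inducible form, was at 178 to 187 CPM in GFP and fell by 0.22 (adjusted p = 0.0111). The HK2 call in the mean was lost without GFP replicate 3 (-0.20). GPI, which converts glucose 6-phosphate to fructose 6-phosphate, fell by 0.15, a call that was lost without GFP replicate 1 (-0.12). Of the 3 phosphofructokinase genes, PFKM rose and PFKP fell in the mean. PFKM, the muscle form (chromosome 12, 48498922 to 48540187), was at 59.2, 59.3 and 58.6 CPM in GFP, 80.9, 82.1 and 83.5 CPM in ID1 and 71.7, 74.4 and 78.0 CPM in ID2. It reached 80.0, 84.4 and 87.2 CPM in ID3 and 82.0, 87.9 and 81.1 CPM in ID4, above GFP in all 12 libraries. PFKM rose by 0.45 (log2 fold change, standard error 0.05, adjusted p = 2.07e-07). PFKP, the platelet form, fell by 0.20, and PFKL, the liver form, was not called (log2 fold change -0.14, adjusted p = 0.127), although it passed as lower in ID1 and ID4 and, without ID2 replicate 3, in the mean (-0.17). The aldolases ALDOA and ALDOC both fell. ALDOA, the main form, was at 1023 to 1129 CPM in GFP and had a log2 fold change of -0.21. ALDOC, the brain form (chromosome 17, 26900133 to 26903966), was at 22.3, 20.5 and 19.2 CPM in GFP, 12.5, 13.4 and 11 CPM in ID1 and 12.4, 10.2 and 14.5 CPM in ID2. It was at 13, 13.2 and 15.7 CPM in ID3 and 11, 11.9 and 10.8 CPM in ID4, below every GFP library. ALDOC fell by 0.74 on the log2 scale (standard error 0.09, adjusted p = 1.94e-06), the lowest value of the enzymes. The gene RSKR lies on the same strand at the 3′ end of ALDOC, and their reads may not be separable. TPI1, which interconverts the triose phosphates, was at 433 to 500 CPM in GFP and rose by 0.14 (log2 fold change, adjusted p = 0.0171). Its call was lost without GFP replicate 2 (0.14) or 3 (0.10).

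In the later steps, which yield ATP, PGK1, PGAM1, ENO1 and LDHA fell, whereas GAPDH, ENO2 and PKM were not called in the mean. GAPDH, which oxidises glyceraldehyde 3-phosphate, was at 2760 to 2926 CPM in GFP and was not called in the mean (log2 fold change 0.07, adjusted p = 0.384). It was higher in ID2 (log2 fold change 0.32, adjusted p = 0.00157), at 3541, 2952 and 3962 CPM, with ID2 replicate 3 the highest. PGK1, the first ATP-forming step, was at 820, 772 and 711 CPM in GFP and 555 to 675 CPM in the ID libraries. It fell by 0.34 (standard error 0.04, adjusted p = 2.48e-07). PGAM1, the next enzyme, was at 193 to 222 CPM in GFP and 139 to 167 CPM in the ID libraries, a log2 fold change of -0.42 (standard error 0.04). The enolase ENO1 fell by 0.26 and the neuronal enolase ENO2 had a log2 fold change of -0.01. PKM, pyruvate kinase, was not called in the mean (log2 fold change 0.08, adjusted p = 0.154), but was higher in ID1 (log2 fold change 0.16, adjusted p = 0.0234). LDHA, which reduces pyruvate to lactate, was at 1792, 1748 and 1633 CPM in GFP and 1195 to 1394 CPM in the ID libraries. LDHA fell by 0.42 (standard error 0.03, adjusted p = 3.01e-09). The annotation names 65 pseudogenes of GAPDH, 13 of PGAM1, 6 of LDHA and 5 of PKM, so the values of these genes may hold or miss reads of the copies.

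Against GFP, each ID group had more of the 40 genes called than the share over all genes. In ID1, 31 passed, 5 higher and 26 lower, where 22.1% of all tested genes passed, 12.4% higher and 9.73% lower. In ID2, 26 passed, 8 higher and 18 lower, beside 35.1% of all tested genes, 18.5% higher and 16.7% lower, and without ID2 replicate 3 the number was 31. In ID3, 28 passed, 8 higher and 20 lower, beside 28.6%, 15.1% and 13.5% of all. In ID4, 30 passed, 5 higher and 25 lower, beside 21.6%, 12.1% and 9.51%. The share called higher, 12.5% in ID1 and ID4 and 20% in ID2 and ID3, stood beside the background shares of 12.4%, 12.1%, 18.5% and 15.1%, and the share called lower, 45% to 65%, was above it. NDRG1, whose higher level in GFP was known when the list was made, is counted as lower in all 4.

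**Figure D3:**
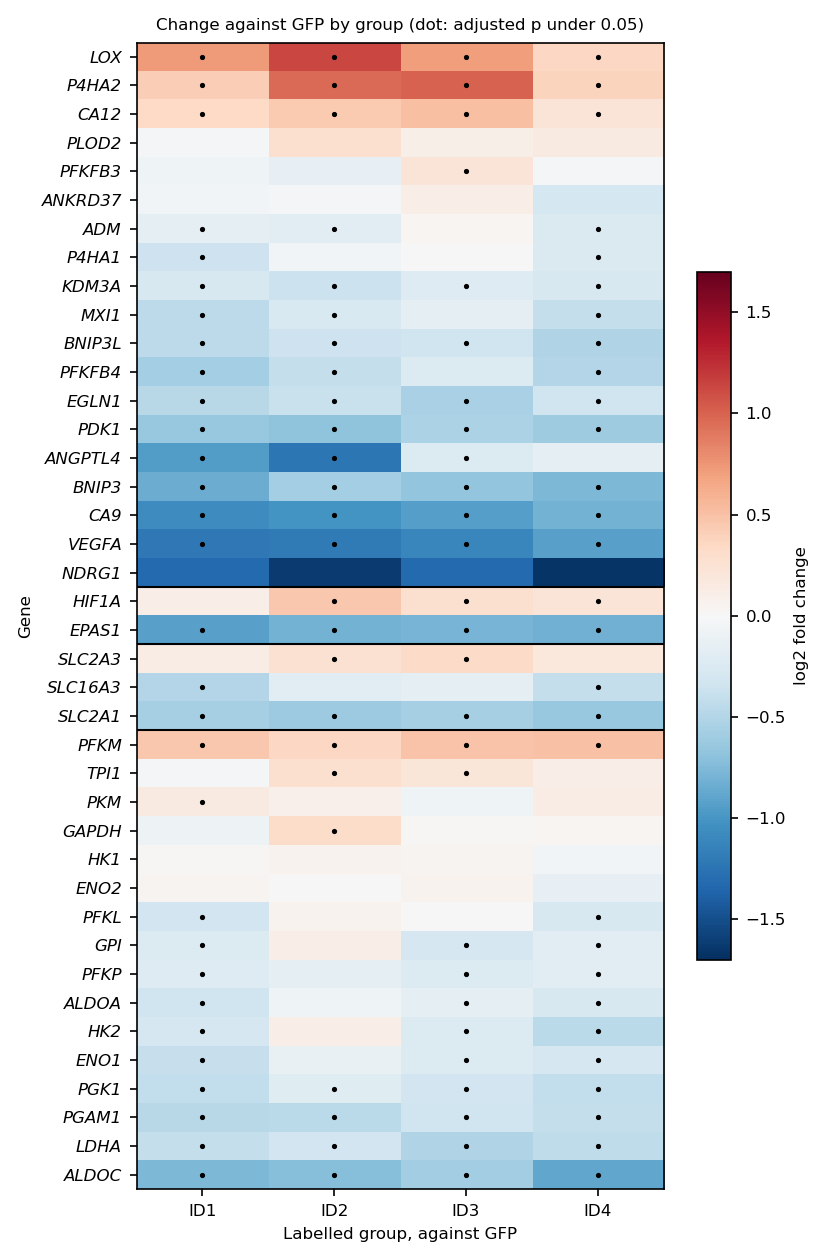
Log2 fold change of the 40 genes against GFP in each ID group, in blue for lower and red for higher, with a black dot where the adjusted p was under 0.05 (none is drawn for NDRG1) and lines between the HIF targets, HIF alpha subunits, carriers and glycolysis enzymes. Among the glycolysis enzymes the ID2 column has 3 red and 4 blue cells with a dot, and LOX, P4HA2, CA12 and PFKM are red in all 4 columns.

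The 2 larger lists are given here by group. The share called over all tested genes was 22.1% in ID1, 35.1% in ID2, 28.6% in ID3 and 21.6% in ID4. The median log2 fold change of the HIF targets was -0.44 in ID1, -0.35 in ID2, -0.22 in ID3 and -0.30 in ID4, with 16, 15, 13 and 15 of 19 called. Without NDRG1 the medians were -0.40, -0.30, -0.19 and -0.29, with 15, 14, 12 and 14 of 18 called. For the 16 enzymes it was -0.26 in ID1, 0.03 in ID2, -0.20 in ID3 and -0.23 in ID4, with 12, 7, 11 and 11 called. The 7 enzymes called in ID2 were 3 higher (PFKM, GAPDH and TPI1) and 4 lower (ALDOC, PGAM1, LDHA and PGK1), beside the 35.1% of all tested genes given above. The ID2 value of the enzymes was -0.04 without ID2 replicate 3. Taken library by library against the GFP mean, the median of the HIF targets ranged from -0.07 to 0.06 in GFP and from -0.47 to -0.11 in the ID libraries. That of the enzymes ranged from -0.04 to 0.06 in GFP, from -0.10 to -0.02 in ID2 and from -0.27 to -0.12 in the other ID libraries.

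**Figure D4:**
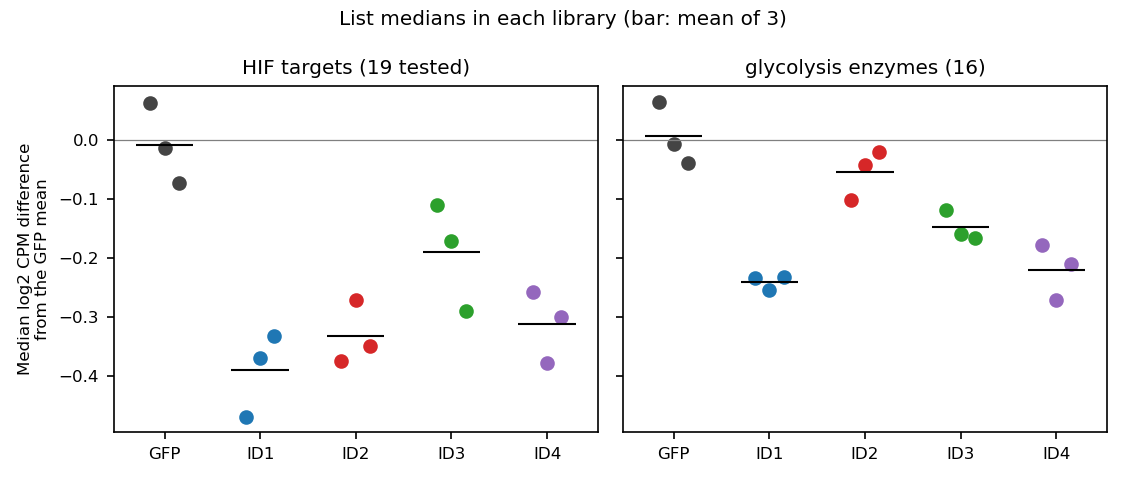
Median over the tested HIF targets (19) and the glycolysis enzymes (16) of the log2 CPM difference from the GFP mean, in each library by group, with a bar for the mean of 3. All ID libraries lie below GFP in the HIF targets, and in the enzymes the ID2 libraries lie between -0.10 and -0.02.

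Differences among the 4 ID groups, which do not use the GFP libraries, were called in 25 of the 40 genes, beside 29.1% of all tested genes. By pairs, 16 genes differed between ID1 and ID2 (18.6% of all genes), 12 between ID1 and ID3 (9.18%), 4 between ID1 and ID4 (4.87%), 10 between ID2 and ID3 (15%), 17 between ID2 and ID4 (18.6%) and 11 between ID3 and ID4 (11.3%). The number for ID1 and ID4 was 2 or 3 with any of their libraries left out. It was 7 for ID1 and ID3 without ID1 replicate 3, and 11 for ID2 and ID4 without ID4 replicate 2. For ID3 and ID4 it was 6 without ID4 replicate 1, 2 or 3 and 7 without ID3 replicate 1 or 2. The 4 genes between ID1 and ID4 were LOX and NDRG1, higher in ID1, and ANGPTL4 and VEGFA, higher in ID4.

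Between ID2 and another ID group, enzymes made up 8 of the 16 genes called against ID1, 5 of 10 against ID3 and 7 of 17 against ID4. Enzymes are 16 of the 41 genes, and whether they were called more often than the others was not tested. ANGPTL4 and LOX, described above, were called in all 3 pairs. HK2 was at 202, 220 and 166 CPM in ID2, 149, 155 and 152 CPM in ID1, 141, 155 and 177 CPM in ID3 and 131, 139 and 133 CPM in ID4. ID2 replicate 3 fell within the ID3 range, and the other ID2 libraries were above all libraries of ID1, ID3 and ID4. ID2 exceeded ID1 by 0.40, ID3 by 0.35 and ID4 by 0.57 on the log2 scale (standard error 0.08 each, adjusted p = 0.00128, 0.00477 and 3.30e-05). GPI, at 228 to 261 CPM in ID2 and 182 to 209 CPM in the other ID groups, differed in the same pairs by 0.34, 0.40 and 0.30. GAPDH, at 3541, 2952 and 3962 CPM in ID2 and 2601 to 3150 CPM in the other ID groups, exceeded ID1 by 0.40, ID3 by 0.30 and ID4 by 0.29. In total, 8 enzymes were called as higher in ID2 than in ID1, 5 than in ID3 and 7 than in ID4. These enzyme counts are not given without ID2 replicate 3. Over all members, 18, 11 and 14 genes were then called against ID1, ID3 and ID4. PKM was the one enzyme called as lower in ID3 than in each of the other ID groups. The log2 differences were 0.23 for ID1, 0.16 for ID2 and 0.19 for ID4.

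Several of the 40 genes lie on chromosomes whose other genes moved together. The median log2 fold change of the other tested genes in the mean comparison was 0.33 on chromosome 15 (CA12 and PKM), 0.18 on chromosome 12 (SLC2A3, PFKM, TPI1, GAPDH and ENO2) and -0.13 on chromosome 10 (BNIP3, P4HA1, PFKFB3, MXI1, HK1, PFKP and PGAM1), and between -0.07 and 0.03 on the others that hold a tested gene of the 40. Relative to its chromosome, PFKM was higher by 0.27, SLC2A3 by 0.04 and CA12 by 0.06. TPI1 became -0.03, GAPDH -0.11, ENO2 -0.19 and PKM -0.25. On chromosome 10, BNIP3 was at -0.59, PGAM1 at -0.29 and MXI1 at -0.19 relative to the median. P4HA1 and PFKP, which fell in the mean, were at -0.03 and -0.07. HK1 and PFKFB3, not called in the mean, were at 0.15 and 0.13. Thus, of the 7 genes that rose, SLC2A3, CA12 and TPI1 were within 0.06 of their chromosome's median, whereas LOX, P4HA2, HIF1A and PFKM were not. The part of these chromosome shifts in the results was not tested.

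**Figure D5:**
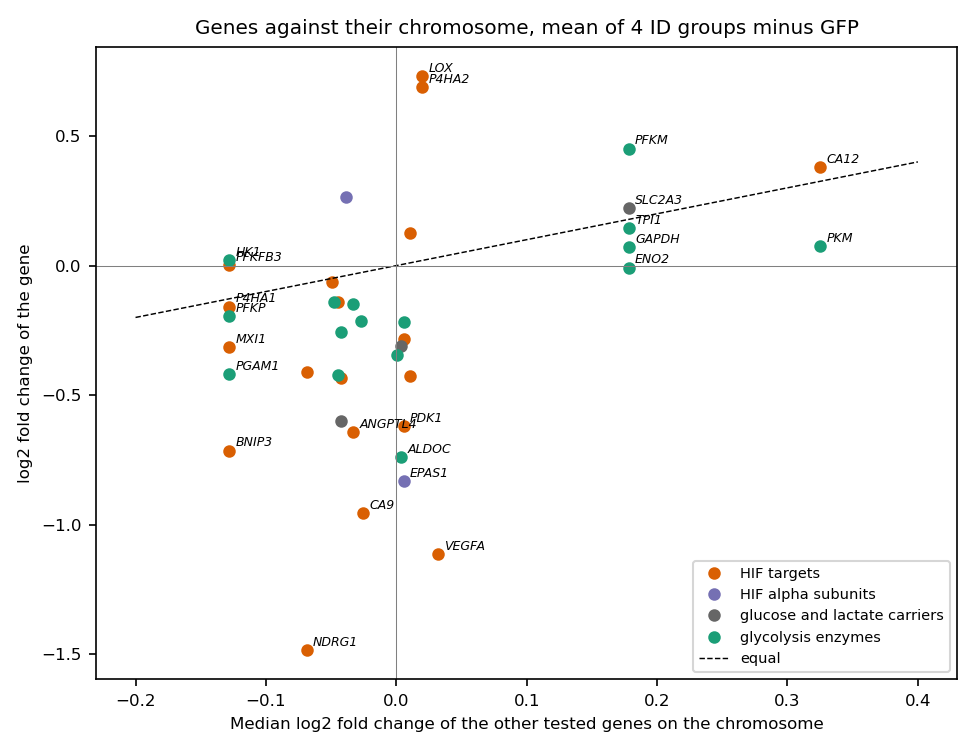
Log2 fold change of each of the 40 genes in the mean of the 4 ID groups against GFP (vertical) against the median of the other tested genes on its chromosome (horizontal), coloured by list, with a dashed line where both are equal. CA12, SLC2A3 and TPI1 lie close to the line at chromosome medians of 0.33 and 0.18, and NDRG1, VEGFA, CA9, LOX and P4HA2 lie far from it.

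Other genes of the same pathways were counted on 3 further lists. Over all tested genes, 32% passed in the mean of the 4 ID groups against GFP, 16.8% higher and 15.2% lower. Of 10 HIF partners and regulators, 9 were tested and 4 passed, 2 higher and 2 lower. ARNT2, an alternative partner of the alpha subunits, was at 11.1, 10.9 and 8.95 CPM in GFP, 24.1, 24.4 and 25.5 CPM in ID1, 15.2, 14 and 14.3 CPM in ID2, 20.7, 17.9 and 25 CPM in ID3 and 18.3, 17.3 and 17.4 CPM in ID4. All ID libraries were above GFP, and the log2 fold change was 0.89 (standard error 0.10). CITED2, which competes with the alpha subunits for their coactivator, was at 54.3 to 68.6 CPM in GFP and 38.7 to 50.5 CPM in the ID libraries and fell by 0.50 (standard error 0.07). HIF1AN, the asparaginyl hydroxylase that blocks coactivator binding, fell by 0.22. ARNT, named after its value was seen, had a log2 fold change of 0.12 (adjusted p = 0.0478).

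Of 22 other hypoxia-responsive genes, 21 were tested and 13 passed, 4 higher and 9 lower, beside 32% of all tested genes. Their median log2 fold change was -0.13. DDIT4, an inhibitor of mTORC1 signalling, was at 368, 392 and 424 CPM in GFP and 154 to 236 CPM in the ID libraries and fell by 1.14 (standard error 0.05). STC2, a secreted stanniocalcin, was at 2635, 2828 and 2715 CPM in GFP and 1197 to 1601 CPM in the ID libraries and fell by 1.00 (standard error 0.04). As in NDRG1, ID2 and ID4 had lower STC2 levels, at 1197 to 1281 CPM, than ID1 and ID3, at 1451 to 1601 CPM.

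Of 29 other genes of glycolysis and pyruvate use, 20 were tested and 12 passed, 9 higher and 3 lower, beside 32% of all tested genes. Their median log2 fold change was 0.15. ADPGK, an ADP-dependent glucokinase, was at 16.6, 12.8 and 13.6 CPM in GFP and 17.7 to 28.8 CPM in the ID libraries and rose by 0.69 (log2 fold change, standard error 0.11). PDK3, a relative of PDK1, was at 5.0 to 5.69 CPM in GFP and 4.88 to 12.8 CPM in the ID libraries, and rose by 0.52 (log2 fold change, standard error 0.13), with 1.05 in ID3 and 0.08 in ID2. MPC2, a subunit of the mitochondrial pyruvate carrier, was at 102, 99.6 and 94.9 CPM in GFP and 55.1 to 76.1 CPM in the ID libraries and fell by 0.61 (standard error 0.06). Its partner subunit MPC1 rose by 0.43 (log2 fold change), and LDHB and TIGAR rose by 0.35 and 0.50, all 3 named after their values were seen. ADPGK and ARNT2 lie on chromosome 15 and LDHB and TIGAR on chromosome 12, whose medians are given above.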

How the data were processed

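RNA of U87MG cells was sequenced with the QuantSeq 3′ kit in 15 libraries. The authors deposited raw counts per gene and log2 values normalized between libraries, both on hg19 (GRCh37). The submitters' processing notes name BWA and Bowtie2, and the counting tool and the annotation are not given in the sources used here. The deposited values are titled quantile normalized, and the steps of that normalization are not given. The deposited log2 values served to select the 12870 genes tested, the upper 50% by mean (3.22 or more), and as an alternative. Tests on the deposited counts used edgeR 4.0.16 (R 4.3.3). TMM factors were 0.978 to 1.026, and the model held 1 mean per group over all 15 libraries, tested by quasi-likelihood (common dispersion 0.00463). Benjamini-Hochberg adjustment ran over all tested genes, and an adjusted p under 0.05 counted as a call. The script was tested on simulated counts. Total counts of 11089044 to 15148979 make a floor of 3 counts 0.198 to 0.271 CPM. No molecular identifiers are named.

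The members and lists were chosen with earlier results of these data known. Values in every library are given for NDRG1, HIF1A, EPAS1, the 5 members with the largest increase and the 5 with the largest decrease past the threshold, and the 5 with the smallest p among the ID groups. From each further list, the 3 tested genes with the largest absolute change past the threshold are named. 1 of these is not reported here. Other genes are described by range. Alternatives were other filters, DESeq2 1.42.0, limma 3.58.1 with trend, the groups compared alone, a fold threshold of 2, the study's own rule for ID1, a replicate block, chromosome medians, and each library left out. Of the listed genes, 22331 matched a GENCODE position by symbol, 1413 by another symbol, and 1993 had none. Promoters came from RefSeq (GRCh38.p14) and were matched exactly to GRCh37. Plots used matplotlib 3.10.9 (Python 3.11.15).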

Additional observations from a re-analysis of the deposited data

How the results depend on the processing

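In the mean of the 4 ID groups against GFP, between 30 and 33 of the 40 genes passed with any library left out. Against GFP, ID1 had 29 to 31 calls, ID2 26 to 31, ID3 24 to 27 and ID4 25 to 28, with 21 to 26 for differences among the ID groups. By pairs it was 15 to 18 (ID1 and ID2), 7 to 12 (ID1 and ID3), 2 to 3 (ID1 and ID4), 9 to 11 (ID2 and ID3), 11 to 17 (ID2 and ID4) and 6 to 9 (ID3 and ID4). A fold threshold of 2 moved the numbers most. It left 2 genes in the mean (NDRG1 and VEGFA), 3 in ID1, 5 in ID2, 3 in ID3 and 1 in ID4 (NDRG1). Between ID groups it left 1 for ID2 and ID4 and 0 for the other pairs. The study's own rule gave 3 for ID1. NDRG1, whose difference from GFP was known when the list was made, is included in every number against GFP in this paragraph. With the groups compared alone, 8 genes passed between ID1 and ID4 and 6 between ID2 and ID3. Other filters, DESeq2 and limma left the counts within 1.5 times. Among single genes, the call of ANGPTL4 in ID3 was lost with limma (-0.23) and in the upper 25% of genes (-0.22), and that of CA12 in ID4 with all genes of at least 1 count (0.23).

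After subtraction of the chromosome median, the median log2 fold change of the HIF targets was -0.30 in ID1 and -0.23 in ID2. With single libraries left out, the enzyme median ranged from -0.039 (without ID2 replicate 3) to 0.031 in ID2 and from -0.213 to -0.146 (without GFP replicate 1) in ID3. Relative to its chromosome, CA12 was -0.0029 in ID1 and -0.152 in ID4, and TPI1 was -0.034 in the mean. Some genes near 0 changed sign. In the mean, PFKFB3 was -0.0013 with filterByExpr, -0.0017 with DESeq2 and -0.016 to 0.014 with single libraries left out. ENO2 was 0.0046 in the upper 25% of genes. Left-out libraries gave ANKRD37 -0.157 to 0.0046 in the mean and P4HA1 -0.022 to 0.036 in ID3. Where no reason is given, the cause was not tested.

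The labels number libraries 1 to 3 in each group. After removal of group means, the correlation across genes in the 30 pairs of equal number lay between -0.25 and 0.24 (mean -0.02). In the 60 pairs of unequal number it lay between -0.21 and 0.22 (mean 0.01). Of the 15 libraries, 3 correlated best with their own number. With 3 libraries per group, this check cannot exclude that equal numbers share a culture or a day, which the labels do not give. Under a replicate block, 32 genes passed in the mean, 31, 26, 28 and 30 in ID1 to ID4, and 23 among the ID groups. By pairs the block gave 16, 12, 3, 10, 14 and 9 genes in the order above. At this depth EGLN3, with 1 count in all, could not be tested.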
